A study of Mus musculus with 6 samples.

Results

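Visceral endoderm, the extraembryonic layer that supplies the early mouse embryo, makes and secretes the carrier proteins that the liver later releases into plasma. 10 of these genes were followed here, chosen by name: Afp, Alb, Ttr, Rbp4, Trf, Apoa1, Apoa4, Apob, Apoe and Apom, out of 21938 protein-coding genes in the annotation. Afp lies beside Alb and Apoa1 beside Apoa4, so the 10 genes occupy 8 separate stretches of the genome. Binding of GATA4 and GATA6 was measured by CUT&RUN, in which a nuclease tethered to an antibody cuts out the DNA around the bound protein. The cells were XEN cells, a cell line model of the primitive endoderm, the lineage from which visceral endoderm forms. By single-cell RNA the study mapped its starting XEN cells mostly to parietal endoderm, another branch of that lineage. In its chimeric embryos XEN cells contributed to parietal endoderm. There were 3 libraries for GATA4 and 3 for GATA6. All 6 libraries are labelled as the line 3F2, whereas the methods of the study name 3F2 and 3F6 and fewer replicates. The methods state 500000 cells per reaction and 30000000 reads per sample, and the reads of each library were not measured here. Per those methods the XEN cells came from mice carrying a doxycycline-inducible reprogramming cassette (Col1a1 TetO-OKSmCh), its transactivator (R26 M2rtTA) and an Oct4-GFP reporter. Both groups share these alleles. By their labels they differ only in the antibody, and their depth after filtering is not known. RNA and protein levels of the 10 genes were not analysed here. The label XEN could not be checked against marker expression in these data, and the libraries may be technical replicates of 1 line.

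GATA4 and GATA6 are zinc finger transcription factors that bind the word WGATAR and drive the primitive endoderm programme. In liver and visceral endoderm the carrier genes are known to depend also on HNF1, HNF4 and FOXA proteins. The albumin enhancer is a textbook case in which FOXA and GATA4 open closed chromatin, and Afp, Ttr, Apoa1 and Apob are classical targets of the HNF factors.

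A region is a stretch of DNA that the authors called as enriched in 1 library. The lists held 49597, 46646 and 48397 regions for GATA4 and 46484, 42446 and 44539 for GATA6. The 2 combined lists keep what was called in every replicate of a factor, 8282 regions for GATA4 and 5170 for GATA6. A region was counted for a gene where it overlapped the gene body or came within 50 kb of one of its transcription start sites (TSSs) in the annotation, and distances run from the region's nearer edge to the nearest TSS of that gene. The percentile given for a region is the rank of its total signal within its own library's list, where the strongest region stands at 100. Signals carry no depth scaling and were not compared between lists.

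4 of the 10 carrier genes had a GATA4 combined region in reach (Ttr, Apoe, Apom and Rbp4), where 48.2% of all protein-coding genes had one. That count depended on single libraries. With GATA4 replicate 2 left out, and so with fewer lists to agree, it was 8 (55.6% of all genes). With GATA4 replicate 3 left out it was 7 (56.4% of all genes), so that it went from below to above the share of all genes. The members gained were not independent. Without replicate 2, Afp and Alb were gained through the same region (chr5:90442302-90442726), as were Apoa1 and Apoa4 (chr9:46215136-46215849). Without replicate 3, Afp and Alb again shared a region (chr5:90442746-90443084). 3 had a GATA6 combined region (Ttr, Apoe and Apom), where 38.3% of all genes had one, and 5 did with GATA6 replicate 2 left out (48.5% of all genes). Ttr was the sole member that was itself the nearest protein-coding gene of a combined region, and this held for both factors (1 of 10 each, against 25.8% of all genes for GATA4 and 18.1% for GATA6). None of the 10 had a combined region within 1 kb of its own TSS, where 19.8% of all genes had one for GATA4 and 13.8% for GATA6. The combined regions at the other 3 genes had a neighbouring gene's TSS as their nearest; all but 1 at Apom, which was intergenic, lay within 1 kb of it. Afp, Alb, Apoa1, Apoa4, Apob and Trf had no combined region of either factor in reach.

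The sequences below are shown as examples: regions that the replicates shared, a region inside a carrier gene, and 2 carrier promoters without any called region. The lack of a region did not set these 2 promoters apart. No library called a region in the 250 base promoters of any of the 8 members searched. No share of all genes is given for this. Regions and TSSs are in mm10. All region sequences are from the plus strand and free of annotated UTRs. They were cut as 200 bases near the strongest signal of at least 1 library, and maxima of other libraries can lie outside. At Tomm40 the midpoints of the maxima spread over 390 bp. The Rbp4 intron window lies outside the region that GATA6 replicate 3 called. Capitals mark matches, on either strand, to any of the words searched for. For the GATA factors these were AGATAA or AGATAG or TGATAA or TGATAG, which together spell WGATAR. For FOXA they were TGTTTAC or TATTTAC, and for AP-1 the word was TGANTCA. For HNF1 the word was GTTAAT, and for HNF4 it was CAAAGTCCA or CAAAGGTCA. None of these words contains another. The windows in the promoter regions of Tomm40 (at the Apoe locus, chr7:19715756-19715955) and Bag6 (at the Apom locus, chr17:35134978-35135177) hold no GATA word. Over their full length the Tomm40 region held 2 GATA words and the Bag6 region 1.
Tomm40 promoter region: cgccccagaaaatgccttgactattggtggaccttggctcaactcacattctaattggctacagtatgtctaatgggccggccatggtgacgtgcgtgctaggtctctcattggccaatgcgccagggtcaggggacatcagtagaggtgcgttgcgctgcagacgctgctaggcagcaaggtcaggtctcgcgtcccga
Bag6 promoter region: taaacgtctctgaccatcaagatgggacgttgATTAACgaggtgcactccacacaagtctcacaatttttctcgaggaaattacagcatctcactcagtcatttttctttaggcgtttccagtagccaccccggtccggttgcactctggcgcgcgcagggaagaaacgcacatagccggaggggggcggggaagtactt
The region between Abhd16a and Ly6g5c at the Apom locus (chr17:35104084-35104283), in the GATA4 combined list and away from promoters, holds 1 GATA word, read on the minus strand.
Apom locus intergenic region: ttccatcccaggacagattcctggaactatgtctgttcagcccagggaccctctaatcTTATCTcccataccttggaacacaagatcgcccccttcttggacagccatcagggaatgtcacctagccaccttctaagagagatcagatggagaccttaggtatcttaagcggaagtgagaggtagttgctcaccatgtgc
At the Rbp4 locus, the GATA4 combined region in Pde6c (chr19:38134102-38134301) holds AP-1 words and an HNF1 word, while the region inside Rbp4 (chr19:38121584-38121783) holds a GATA word.
Pde6c intron region: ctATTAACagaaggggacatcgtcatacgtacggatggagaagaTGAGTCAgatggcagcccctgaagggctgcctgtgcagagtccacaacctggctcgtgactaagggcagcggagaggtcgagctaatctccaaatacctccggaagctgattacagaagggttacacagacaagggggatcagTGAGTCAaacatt
Rbp4 intron region: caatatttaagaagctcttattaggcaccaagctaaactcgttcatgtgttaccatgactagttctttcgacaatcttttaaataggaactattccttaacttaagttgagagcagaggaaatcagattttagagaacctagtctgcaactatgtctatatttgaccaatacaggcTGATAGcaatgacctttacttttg
The 250 bases before the RefSeq start of Afp (chr5:90490464-90490713) and of Alb (chr5:90460620-90460869), both from the plus strand of GRCm38, each hold 1 HNF1 word and no GATA word.
Afp promoter: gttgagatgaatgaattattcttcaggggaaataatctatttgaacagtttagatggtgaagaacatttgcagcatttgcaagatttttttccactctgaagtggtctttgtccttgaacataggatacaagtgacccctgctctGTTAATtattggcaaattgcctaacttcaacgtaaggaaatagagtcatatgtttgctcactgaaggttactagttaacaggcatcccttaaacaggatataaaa
Alb promoter: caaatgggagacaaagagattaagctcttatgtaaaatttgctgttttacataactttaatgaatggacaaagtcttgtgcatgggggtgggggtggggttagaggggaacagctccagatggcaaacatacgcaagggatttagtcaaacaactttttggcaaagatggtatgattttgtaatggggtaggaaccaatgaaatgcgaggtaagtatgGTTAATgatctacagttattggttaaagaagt

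**Figure D1:**
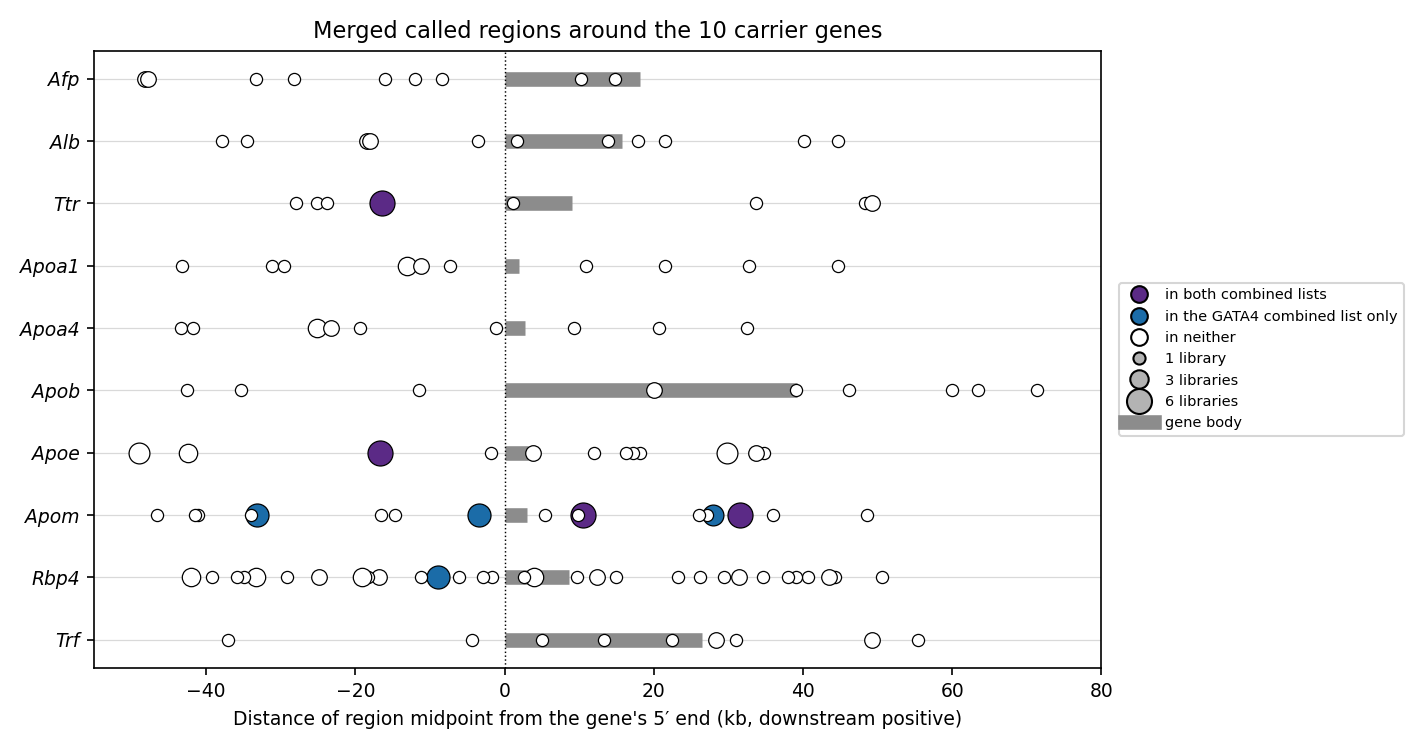
Each circle is a merged region, placed by the distance of its midpoint from the 5′ end of the carrier gene in kb, with downstream positive. The circle's area grows with the number of libraries that called the region, and its fill shows the combined lists that hold it; grey bars are gene bodies. Filled circles lie at Ttr, Apoe, Apom and Rbp4 only, and none lies on a grey bar.

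Transthyretin, encoded by Ttr, carries thyroid hormone and, bound to the retinol-binding protein Rbp4, vitamin A. Its combined region stood 15.9 kb upstream, at chr18:20648396-20649377 in the GATA4 list and chr18:20648751-20649386 in the GATA6 list. The annotation places it in an intron of the antisense transcript Gm16090, which runs from close to the Ttr TSS across the upstream sequence. All 6 libraries called it. Its percentiles were 93.8, 94.6 and 96.9 in the GATA4 libraries and 94.8, 94.6 and 97.9 in the GATA6 libraries. The region thus ranked in the upper part of every list, and the values of the 2 factors overlapped. Over all combined regions outside promoters the median of the replicate means was 84.4 for GATA4 and 82 for GATA6. The mean at Ttr was 95.1 for GATA4, reached or passed by 20.6% of those 4259 regions, and 95.8 for GATA6, reached or passed by 16.5% of 2368.

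The position of the strongest signal at Ttr was close to the same in every library. The midpoints of the maxima lay between 16238 and 16294 bp upstream of the TSS, a spread of 56 bp. Over the 3793 merged regions that all 6 libraries called, the median spread was 132 bp, and 19% were as tight as Ttr or tighter. The maximum signal, in overlapping fragments, was 12, 8 and 9 in the GATA4 libraries and 10, 8 and 15 in the GATA6 libraries. The 994 bp covered by the merged region held 6 GATA words, and 4 of them lay within 100 bp of the median maximum, the nearest at 14 bp. A FOXA word lay 35 bp from the same point and the 2 HNF1 words 138 and 195 bp from it. No library called a region in the sequence between this region and the Ttr TSS. The other 7 merged regions at Ttr were called in 1 library (6 regions) or 2 libraries (1 region), with percentiles between 5.6 and 82.2.

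**Figure D2:**
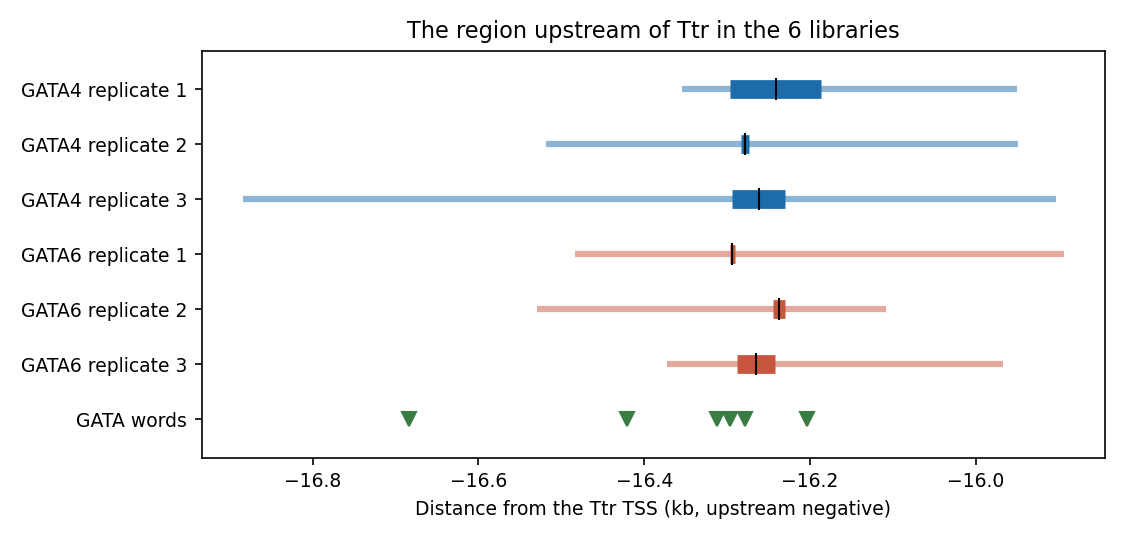
Thin bars are the called regions of the 6 libraries upstream of Ttr, thick bars the stretch of maximum signal and black ticks its midpoint, by distance from the TSS in kb; triangles mark the 6 GATA words. The 6 ticks fall within 56 bp of each other, among the GATA words.

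Rbp4 encodes the plasma carrier of retinol and had the most merged regions of the 10 genes, 31. Its libraries held 7, 4 and 12 regions for GATA4 and 10, 9 and 6 for GATA6, and the groups overlapped. These counts stand on chromosome 19, which was itself dense in called regions: 4.51 ± 0.253 per 100 kb (SD, n = 3) in the GATA4 libraries and 4.36 ± 0.343 in the GATA6 libraries. No other chromosome with a member exceeded 1.61 per 100 kb. The Rbp4 locus held 7.62 ± 4.02 per 100 kb for GATA4 and 8.29 ± 2.07 for GATA6, above the chromosome in 5 of 6 libraries, and the part of the chromosome-wide density in its count was not tested.

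The single combined region in reach of Rbp4 was in the GATA4 list, at chr19:38133800-38134572. It lay 8519 bp upstream of Rbp4 but 854 bp from the TSS of Pde6c, a cone photoreceptor phosphodiesterase gene, in a Pde6c intron. GATA4 libraries placed it at percentiles 69.1, 83.9 and 52.0, GATA6 replicates 2 and 3 at 57.5 and 79.2, and GATA6 replicate 1 did not call it. It was the lowest ranked of the 8 combined regions and held 0 GATA words, with 3 AP-1 words over its length (the Pde6c intron region above). The Rbp4 body itself was touched by 2 merged regions. The higher ranked, chr19:38120735-38121975 in an intron 2750 bp downstream of a TSS, was called in GATA4 replicate 2 (percentile 73.9) and in GATA6 replicates 2 and 3 (93.6 and 74.2). It held 4 GATA words over its 1241 bp and was in neither combined list. Word counts over whole regions, here and at the other genes, were not set against region length. 

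Apoe encodes the ligand by which lipoprotein remnants are taken up. Each GATA4 library held 5 regions at its locus, and the GATA6 libraries held 3, 5 and 4. The combined region of both factors, chr7:19715254-19716404 in the GATA4 list, covered the promoter of Tomm40, a mitochondrial import pore gene, 16066 bp upstream of Apoe. It was the highest ranked of the regions at the 10 genes. Its percentiles were 99.5, 99.4 and 98.0 in the GATA4 libraries and 99.5, 97.8 and 99.1 in the GATA6 libraries, so every list placed it among its strongest regions. The same region was in reach of Apoc1, Apoc2 and Apoc4, which encode small exchangeable apolipoproteins in the same cluster. Next to Apoe itself, chr7:19695113-19695749, just beyond the 3′ end and 1882 bp from the nearest Apoe TSS, was called in GATA4 replicates 1 and 3 at percentiles 93.3 and 21.4, and held 3 GATA words. Those ranks differ widely, and no GATA6 library called it. A region 1615 bp upstream was called in 1 library.

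Apom encodes a lipocalin of high-density lipoprotein that carries sphingosine-1-phosphate. It is the most gene-rich of the loci, with 10 other protein-coding genes whose TSS lay within 50 kb, against a median of 2 over all genes. The GATA4 libraries held 7, 10 and 8 regions and the GATA6 libraries 6, 3 and 5. Every GATA4 library was above every GATA6 library, which was so at 1 of 10 members and 5.36% of all genes. The opposite order occurred at 0 of 10 members and 1.49% of all genes. 5 regions were in the GATA4 combined list and 2 of these also in the GATA6 list. The 2 shared regions lay at promoters of Abhd16a and of the neighbours Gpank1 and Csnk2b. The one at Abhd16a was at an annotated TSS inside the gene and not at its 5′ end. Those in the GATA4 list alone lay at the promoters of Bag6 and Prrc2a and in the intergenic stretch beside Abhd16a. None of the 5 regions was at Apom, whose nearest combined region, at Bag6, began 2738 bp upstream. That region held percentiles of 97.6, 95.3 and 99.1 for GATA4. GATA6 replicates 1 and 3 placed it at 99.5 and 98.2, and its absence from the GATA6 combined list rests on GATA6 replicate 2, which did not call it. Prrc2a likewise missed the GATA6 list through GATA6 replicate 3 alone, with 98.4 and 98.2 in the other two. The intergenic region was called in 1 of the GATA6 libraries, replicate 1 (80.5), beside 95.9, 92.8 and 85.3 in the GATA4 libraries.

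**Figure D3:**
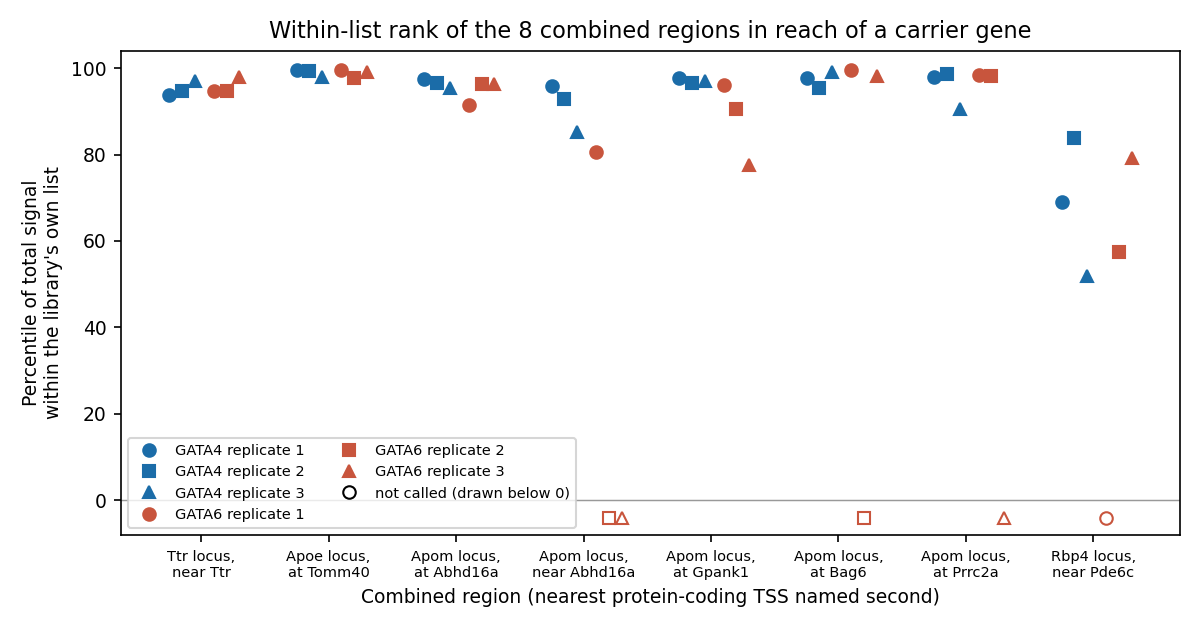
Points give, for each library, the percentile of total signal of the 8 combined regions in reach of a carrier gene within that library's own list, with open symbols below 0 where the library did not call the region. All called values at the Ttr and Tomm40 regions are above 93, while the region near Pde6c ranges from 52.0 to 83.9.

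Afp encodes alpha-fetoprotein and Alb albumin, the main plasma proteins of the fetus and the adult. GATA4 libraries held 3, 2 and 2 regions at Afp and 4, 2 and 2 at Alb, and GATA6 libraries held 1, 2 and 1 at Afp and 1, 3 and 1 at Alb. Groups overlapped at both genes, and 9 of the merged regions were in reach of both. No region was called in more than 2 libraries. The 2 that were called in 2 libraries are adjacent and lie far upstream. The higher ranked of them, chr5:90442746-90443084, began 17813 bp upstream of Alb, was called in GATA4 replicates 1 and 2 at percentiles 42.3 and 32.8 and held 0 GATA words. Between it and the next region, whose far edge was 3855 bp upstream of Alb and which GATA6 replicate 2 alone called (81.7), no library had a region. The nearest region upstream of Afp began at 8226 bp and was called in GATA4 replicate 2 alone (27.3). The 250 bp promoters shown above overlapped no region in any library. The nearest combined region of either factor was at the Cox18 promoter, 236455 bp from Alb for GATA4.

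Apoa1, the main protein of high-density lipoprotein, and Apoa4, an intestinal and hepatic apolipoprotein, share a cluster with Apoc3 and Apoa5. GATA4 libraries held 3, 2 and 2 regions at each gene. GATA6 libraries held 2, 3 and 1 at Apoa1 and 1, 3 and 1 at Apoa4. The region called most often, chr9:46215136-46215849, lay in an intron of the kinase gene Sik3, 12731 bp upstream of Apoa1. It was called in GATA4 replicates 1 and 3 (67.6 and 54.3) and in GATA6 replicate 2 (19.3), and held 2 GATA words. Between the last Sik3 region, 6974 bp upstream of Apoa1, and one 1006 bp upstream of Apoa4, both in 1 library, no region was called, and the Apoa1 body lies in that gap. The nearest combined region was 399606 bp from Apoa1, at the Cep164 promoter.

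Apob encodes the structural protein of very-low-density and low-density lipoprotein. Its libraries held 1, 3 and 1 regions for GATA4 and 3, 0 and 2 for GATA6, and GATA6 replicate 2 at Apob was the one case of a library without a region at a member. Its highest ranked repeated region, chr12:7997076-7998142, lay in an Apob intron. It was called in GATA6 replicates 1 and 3 at percentiles 75.1 and 84.6, in no GATA4 library, and held 0 GATA words. The highest percentile of any single-library region at the 10 genes, 93.2, was also at Apob, 28219 bp from the nearest TSS, in GATA4 replicate 2. The nearest combined regions stood 661519 bp away for GATA4, near Pum2, and 300933 bp for GATA6, near Hs1bp3.

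Trf encodes transferrin, the iron carrier. GATA4 libraries held 3, 1 and 1 regions and each GATA6 library 2. The 3 regions in its body were in 1 library each, with percentiles of 57.9, 17.7 and 3.4. Its highest ranked repeated region, chr9:103201935-103202240, was at the promoter of Srprb, a signal recognition particle receptor subunit gene, in GATA4 replicate 1 and GATA6 replicate 3 (77.0 and 25.1). The nearest combined region was 120973 bp away for GATA4, near Rab6b, and 135161 bp for GATA6, near Cdv3.

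**Figure D4:**
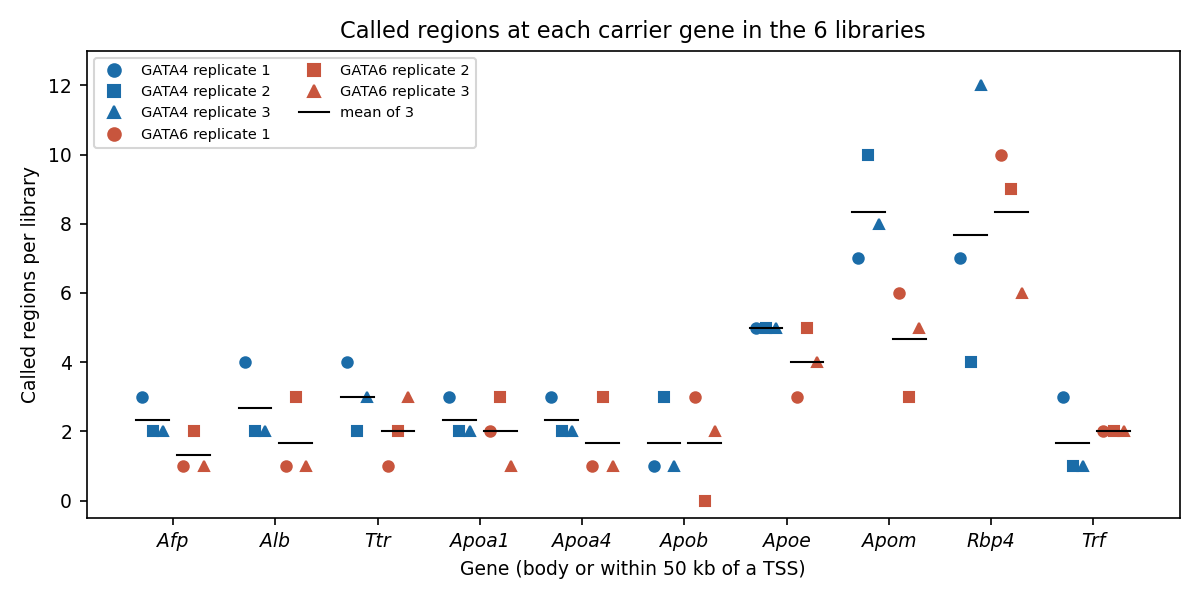
Symbols give the number of called regions of each library in the gene body or within 50 kb of a TSS, and black bars the mean of the 3 libraries of a factor. Rbp4 and Apom reach the highest counts, 12 and 10, and the GATA4 and GATA6 symbols separate at Apom alone.

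Nearly every library had some region at nearly every member. The GATA4 libraries each had a region in reach of 10 of 10 members, where 85.1%, 83.5% and 83.2% of all genes had one. The GATA6 libraries had 10, 9 and 10 members, where 83.1%, 82.2% and 83.2% of all genes had one. In all, 107 merged regions lay at the 10 genes. 72% of them were called in 1 library, against 83.2% of all merged regions, and 28% in 2 or more, against 16.8%. Most of the 30 repeated regions lay at Rbp4 (10), Apoe (6) and Apom (5). Promoters held 18.7% of the 107 regions, against 10.3% of all merged regions. The part of these neighbourhoods in the difference was not tested. The 77 single-library regions had a median percentile of 37, and the 10 regions in 4 or more libraries one of 94, where all merged regions had 39.1 and 78. Of the 40 regions whose nearest protein-coding TSS was a member's, 7 were in 2 or more libraries. Of the 12 that overlapped a member's body, 2 were. 3 lay within 1 kb of an annotated TSS of a member (1 each at Ttr, Alb and Afp, those at Alb and Afp being at TSSs inside the gene and not at its 5′ end), each in 1 library.

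The libraries were then compared over all 10 genes together, counting each region once. GATA4 libraries held 34, 29 and 34 regions and GATA6 libraries 28, 27 and 24. The means were 32.3 ± 2.89 and 26.3 ± 2.08 (SD, n = 3 each), a difference of 6, and the 2 groups did not overlap. The two-sided exact permutation test gave p = 0.1, the smallest value that 3 against 3 can give, so it could not pass 0.05. GATA4 lists were also longer. As a share of the library's regions the means were 0.067% and 0.0592%, the groups overlapped and the exact permutation p was 0.2. Without the Apom locus, an alternative chosen after the data were seen, the difference was 2.33 (exact permutation p = 0.6).

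6 of the 10 members lay farther from a combined region of either factor than the median gene did. By definition a median leaves about as many genes beyond it as within it, so this is near the share of all genes. The 6 were not independent. Afp and Alb had the same nearest region, at Cox18, as did Apoa1 and Apoa4, at Cep164. Each pair enters the medians of the members as 2 genes. The median distance was 178714 bp for the 10 members and 56972 bp for all genes with the GATA4 list, and 185817 bp and 101243 bp with the GATA6 list. A reach of 10 kb left 2 members for GATA4 (Apom and Rbp4, with 29.8% of all genes) and 0 for GATA6 (21.5% of all genes). A reach of 100 kb gave 4 members for each factor (59.9% and 49.9% of all genes), as Rbp4 joined the GATA6 list. Requiring 2 of 3 replicates in place of all 3 gave 9 members for GATA4, all but Apob, where 65.3% of all genes had such a region. Afp and Alb were counted there through the same regions, as were Apoa1 and Apoa4. The same rule gave 5 members for GATA6, with Apob and Rbp4 added, where 60.4% of all genes had one.

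**Figure D5:**
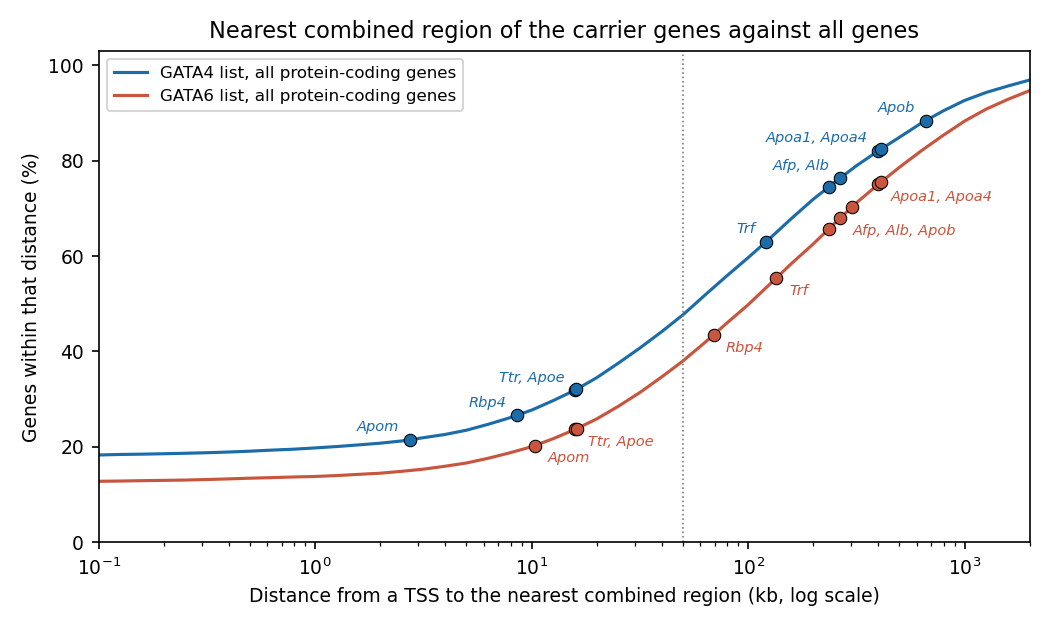
Curves give the percentage of all protein-coding genes with a combined region within a distance in kb (log scale) of a TSS, points place the 10 carrier genes on them and the dotted line marks 50 kb. In both lists 6 members, Afp, Alb, Apoa1, Apoa4, Apob and Trf, lie to the right of 100 kb.

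Combined regions at the carrier genes were also read for the words listed above. Of the 8 regions, 3 held a GATA word within 100 bp of the midpoint (Ttr, and 2 at Apom beside Abhd16a), where 37.3% of the 9655 merged combined regions did. Outside promoters it was 2 of 3, against 56.3%, and at promoters 1 of 5, against 17.6%. In windows 2 kb to either side, 2 of 16 held the word, against 30.5% over all regions. Within 100 bp of the midpoint, the HNF1 word was found in 2 of 8 (Ttr and Rbp4), against 4.36%. The AP-1 word was found there in 1 (Rbp4), against 7.48%, and the FOXA and HNF4 words in none, against 3.97% and 0.684%. The FOXA word of the Ttr region lay outside this window. These are matches of letters over few regions and no test was made. RefSeq promoters were found for 8 of the 10 members, and the 250 bases before each start were searched. Here a gene counts once where any of its listed promoters holds the word, for members and for all genes alike. GATA words stood at Apoa1 and Apoe, as at 29.7% of 27025 genes. HNF1 words stood at 3 (Afp, Alb and Apoe), against 7.49%. At Apoe the GATA and HNF1 words lay only in a listed promoter inside the gene, with 177 of its 250 bases in an annotated UTR. FOXA and AP-1 words stood at 1 (Rbp4), against 6.51% and 7.82%. None held the HNF4 word, which 0.932% of all genes did.

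A wider list of secreted carriers was counted in the same way. Of 26 further genes for apolipoproteins, metal and vitamin carriers, fibrinogen chains and fetuins, 11 had a GATA4 combined region in reach and 9 a GATA6 one. 6 of the 26 lie in the Afp, Apoa1 or Apoe clusters and share the regions above. Among the other 20 the counts were 8 and 6, against the same 48.2% and 38.3% of all genes. Clu, which encodes clusterin, a lipoprotein-bound chaperone, was the sole one of the 36 carrier genes with a combined region of both factors within 1 kb of its TSS. Mttp, whose product loads lipid onto Apob, had a GATA4 region there, at a promoter shared with Trmt10a. Within 1 kb of a TSS, 2 of the 26 thus had a GATA4 region, against 19.8% of all genes. For GATA6 it was 1 of the 26, against 13.8%. The share of all genes with both factors there was not counted.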

How the data were processed

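CUT&RUN for GATA4 and GATA6 was measured in mouse XEN cells, 3 libraries per factor, grouped by sample title. The authors aligned reads to mm10 with bowtie2 2.3.4.1, removed duplicates, mitochondrial and blacklisted reads and those with mapping quality under 20, and called regions per library with SEACR 1.3 at a threshold of 0.01, in which no use of the IgG control reaction named in the methods is described; IgG data were not used here. With a numeric threshold, SEACR keeps a set top share of signal blocks, so list length says little about binding. The deposited lists give the total and maximum signal (fragment coverage) of each region, not scaled for depth. The combined lists hold positions only. Reads left after filtering are not given in the sources used here, so precision is given as the SD over 3 libraries.

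From these lists, regions were assigned to genes of GENCODE M21 (GRCm38, the mm10 assembly) by overlap of at least 1 bp, with Python 3.11.15, numpy 2.4.6 and pysam 0.24.0. Regions of the 6 lists that overlapped were merged. A region's feature is that of its midpoint, and a promoter reaches 1 kb from a TSS. Counts of regions were tested by an exact two-sided permutation (scipy 1.17.1), and the counting was tested on simulated lists. Members were described by counts beside the share of all genes, with no test. Motif windows were 100 bp to either side of the midpoint of merged combined regions. Single regions named were the combined regions at a member and, for each member, the region of highest mean percentile among those in 2 or more libraries. The remaining combined regions, the single-library regions and 5 of the 7 sequences were named after their values were seen. The members, the wider carrier list and the words were chosen with earlier results of these data known. Alternatives varied the reach, the assignment rule, the number of replicates required, the list length, the motif window and each library in turn.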

Additional observations from a re-analysis of the deposited data

How the results depend on the processing

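The counts of members depended on how far a gene may reach and on how many replicates had to agree. Within 10 kb, 2 members and 2 regions were left for GATA4 and 0 and 0 for GATA6, and within 100 kb there were 26 GATA4 and 12 GATA6 regions. Assigning each region to its nearest gene only left 1 member and 1 region for either factor, at Ttr. With at least 2 of 3 replicates there were 9 members and 17 regions for GATA4 and 5 members and 16 regions for GATA6. Leaving out 1 library at a time gave 4 to 8 members and 9 to 13 regions for GATA4 and 4 to 5 members and 7 to 9 regions for GATA6, since fewer lists then had to agree. Without GATA4 replicate 2 there were 8 members (55.6% of all genes), without GATA4 replicate 3 there were 7 (56.4%) and without GATA6 replicate 2 there were 5 (48.5%). In such GATA4 counts Afp and Alb, and Apoa1 and Apoa4, enter through shared regions. The GATA6 regions numbered 8 without GATA6 replicate 1, 7 without replicate 2 and 9 without replicate 3. Searching the whole region found a GATA word in 6 of 8, against 70.6% of all. The difference of 6 regions between GATA4 and GATA6 libraries kept its sign in all alternatives run, in numbers of regions from 1.67 by nearest gene to 14.7 at 100 kb, and from 4.83 to 7.67 with 1 library left out, and exact permutation p-values ran from 0.1 to 0.6. The replicate block left it at 6 (exact sign-flip permutation p = 0.25, the smallest that 3 pairs allow). No pairing by number was seen, as deviations from the factor means correlated at 0.00102, 0.00148 and 0.00118 over the 3 numbers, and 0 of 6 libraries correlated best with their own number. Without the Apom locus the difference was 2.33 and without the Rbp4 locus 6.67, both chosen after seeing the data. The depth of each library after filtering is unknown, so a missing region cannot be told apart from a region under the threshold.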
